A study of Rattus norvegicus with 18 samples.

Results

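The proteasome is the barrel-shaped protease that takes apart proteins tagged with ubiquitin. Its core particle is a stack of rings, with alpha subunits (Psma genes) on the outside that gate the entry and beta subunits (Psmb genes) inside, of which Psmb5, Psmb6 and Psmb7 carry the cutting sites. The regulatory particle caps the core. Its base holds the ATPases that unfold substrates (Psmc genes), the large scaffold subunits Psmd1 and Psmd2, and the ubiquitin receptor Psmd4. Its lid, which helps to take the ubiquitin chain off, holds Psmd3, Psmd6, Psmd7, Psmd8 and Psmd11 to Psmd14. Assembly needs chaperones that are not part of the finished particle, among them Psmd5 and Psmd9 for the ATPase ring and Psmg1 and Psmg2 for the alpha ring. In most cells the subunit genes are held at levels that fit each other, since the particle needs its parts in fixed proportion.

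The probes were chosen by gene symbol alone: every probe named Psma, Psmb, Psmc, Psmd, Psmf or Psmg followed by a digit, with the immunoproteasome subunits Psmb8, Psmb9 and Psmb10 left aside. Of the 22226 probes, 37 matched. Of these, 1 matched by spelling only, Psmc3ip, which belongs to a protein of meiotic recombination, and it is set apart here. The other 36 name proteasome genes, with 1 probe a gene, and fall into 15 core subunits, 17 regulatory subunits and 4 chaperones. Psma7, Psmd10, Psmf1, Psmg3 and Psmg4 were not analysed here, since no probe carries those symbols. Among the 36, 31 were above the detection limit in at least 1 of the 6 groups and were tested (13 core, 14 regulatory and 4 chaperones), and 30 of the 31 were above it in all 6 groups. Psma8, Psmb11, Psmc6, Psmd8 and Psmd14 were below it in every group and have no level here.

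The cells were bone marrow mesenchymal stromal cells (MSCs) of male Sprague Dawley rats, grown out by adherence to plastic. aMSCs came from donors of 12 months and yMSCs from donors of 3 weeks, and each was measured at passage 2 (P2), 30 (P30) and 100 (P100), with 3 arrays in each of the 6 groups. The comparisons thus ask which subunit genes change with long culture and with the age of the donor. The labels name no drug or genetic change, and all groups share the strain and the culture on plastic. The labels do not say whether the 3 arrays of a group stand for separate cultures or animals, so the spread between them may be partly technical. The paper's wording on P30 and P100 may mean a single culture line for each donor age. If so, a donor-age difference at those passages cannot be told apart from a difference between culture lines. The spread between arrays would then lie within a line, not between donors. Total RNA was hybridised to Illumina RatRef-12 bead arrays, and levels are given as log2 signals after background correction and quantile normalization. Levels of different probes cannot be set against each other, so each probe is compared only with itself across arrays.

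On the 18 arrays 7593 to 9157 probes were detected. The arrays of P2 had a lower background than the later ones: the median signal of undetected probes was 51.6 to 56.2 at P30 and P100, against 31.3 to 34.7 at P2, and the ratio of detected to undetected signal was 4.19 to 5.14 later, against 6.07 to 7.14 at P2. A technical difference between the P2 arrays and the later ones cannot be told apart from passage. Ptprc and Cd34, which mark blood cells and their precursors, were below the detection limit in all 6 groups by the group mean. On single arrays of P2, Ptprc read 5.34 on the second of yMSCs and 5.31 on the third of aMSCs. Both values lay above the weakest detected probe of their array (4.993 and 5.025). Of 6 MSC surface markers, 4 to 6 were detected in each group. Of 9 macrophage markers, 3 were detected in aMSCs and 6 in yMSCs at P2, and 1 in each later group. The summed signal of the 5 proliferation genes was 2913 to 3201 at P2, 6069 to 7466 at P30 and 4959 to 6295 at P100 in aMSCs, and 3262 to 3711, 6400 to 7107 and 7626 to 7892 at those passages in yMSCs. The part of cell makeup and of proliferation in the results below was not tested. In RNA from a whole culture, fewer cells of a type and less RNA per cell cannot be told apart.

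Before any comparison, 2 arrays stood apart in these genes. For each array, the log2 value of each member minus that probe's mean over all 18 arrays was averaged over the 13 core and over the 14 regulatory members. The core average was -0.57 on the second aMSCs array of P100 and -0.37 on the first yMSCs array of P30, and between -0.08 and 0.16 on the other 16 arrays. On both, 12 of 13 core members had the lowest of the 3 values of their group, and 10 and 11 of 14 regulatory members did, while 39.4% and 44.3% of all tested genes did. So the low reading on these arrays was wide among the core genes. Many results that rest on them, but not all, are given with and without both or the array concerned (a choice made after seeing the data).

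The group means of most members spanned less than those of the typical gene on the array. The range of the 6 group means was below 1 on the log2 scale (a 2-fold span) for 27 of 31 members, 87.1%, with a median range of 0.67, whereas it was below 1 for 57.4% of the 9531 tested genes, with a median of 0.90. All 12 core members detected in every group stayed below 1, from 0.23 for Psmb4, a structural beta subunit, to 0.76 for Psma2. The span of Psma3, which is counted among the 27, is not given, since its lowest group was below the detection limit. The members above 1 were the ATPase Psmc1 (1.11), the lid subunit Psmd3 (1.00), and the chaperones Psmd9 (1.18) and Psmd5 (2.71). The span of Psmd5 corresponds to 6.56-fold. Members and all tested genes differ in detection: a tested gene needed it in only 1 group, while 30 of 31 members had it in all 6. With an offset of 50 the spans of members and of all tested genes were closer. The share below 1 was then 90.3% against 71%, and the median range 0.60 against 0.70.

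**Figure D1:**
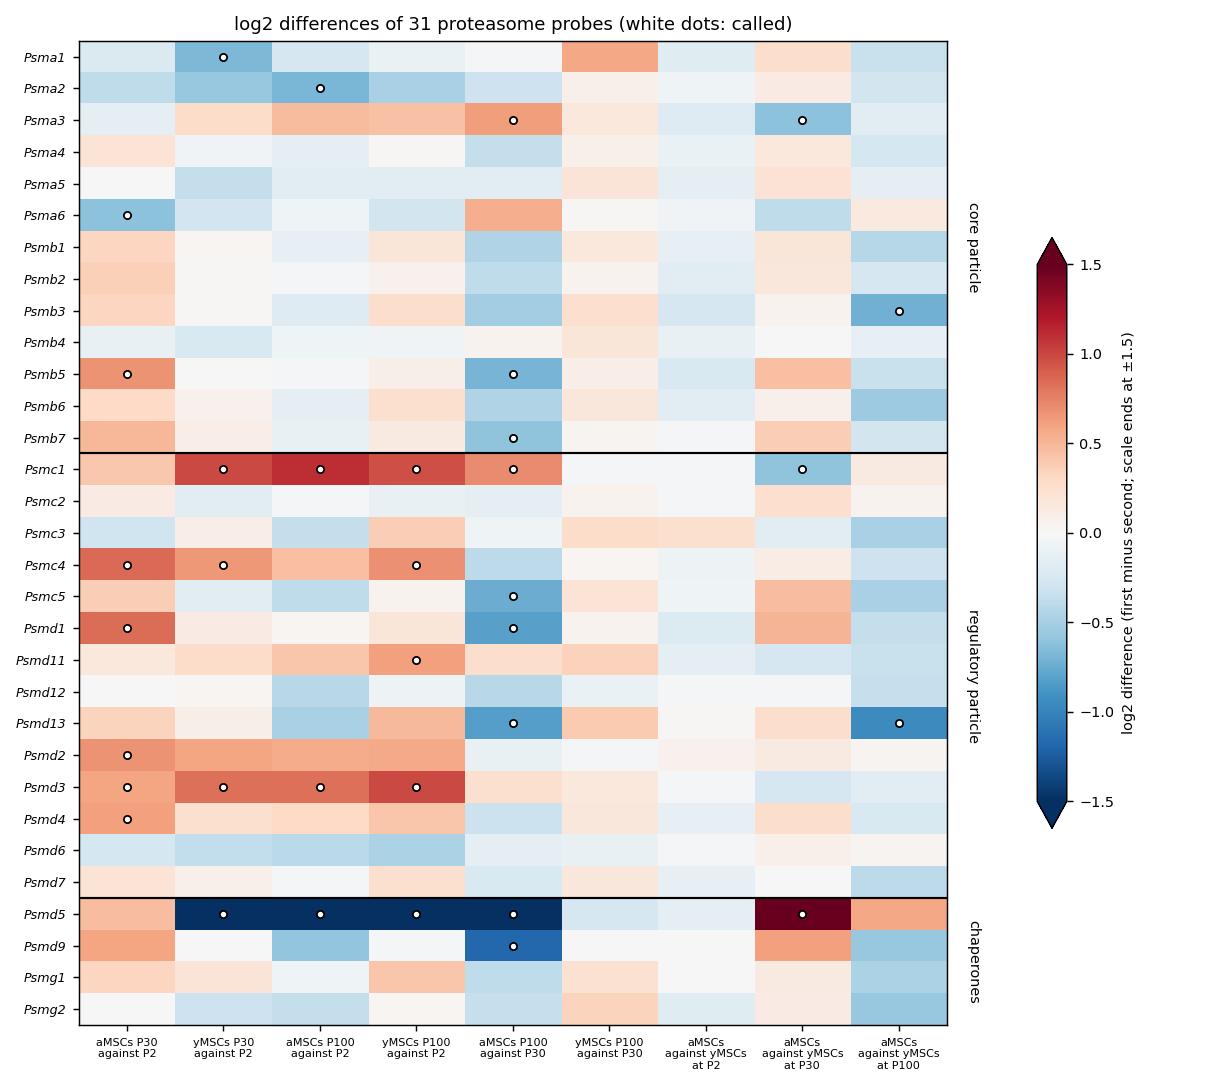
Differences in log2 signal (color; first-named group minus second, n = 3 arrays each) of the 31 tested proteasome members (rows, by particle) in 9 comparisons (columns); white dots mark calls at an adjusted p under 0.05 and a fold of at least 1.5. Psmd5 goes past the ends of the color scale in 5 comparisons, Psmc1, Psmc4 and Psmd3 hold most of the calls above P2 (Psmc4's calls are lost in the authors' values), and aMSCs and yMSCs at P2 have no call.

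A gene was called where limma's moderated test gave a Benjamini-Hochberg adjusted p under 0.05 over all 9531 genes and the fold was at least 1.5. Against P2, 6 of 31 members were called higher and 1 lower at P30 in aMSCs, and 3 higher and 2 lower at P30 in yMSCs. Of all tested genes, 19.3% were called higher and 20% lower in the first of these comparisons, and 16.4% higher and 16.4% lower in the second. At P100, 2 members were called higher and 2 lower in aMSCs (19.1% and 18.6% of all tested genes), and 4 higher and 1 lower in yMSCs (20.6% and 18.7%). The share of members called higher at P30 in aMSCs, 19.4%, was near that of all genes, and each of the other shares was below it. The 7 members called at P30 in aMSCs were 4 when the second array of P2, the third of P2, the first of P30 or the second of P30 was left out, and the 4 called at P100 in aMSCs were 7 without the third array of P100.

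The directions of small changes against P2 depend on the scaling, because the median of all tested genes moved by up to -0.15 without normalization between arrays and by up to -0.10 in the authors' normalized values. Without normalization, 2 members were called higher and 2 lower at P30 and 1 higher and 6 lower at P100 in aMSCs, and 1 higher and 5 lower at P30 and 2 higher and 4 lower at P100 in yMSCs. With the authors' values the counts were 0 higher and 2 lower, 2 and 7, 0 and 7, and 3 and 4 in that order. The shares of all tested genes called under these scalings are not given here, so these counts cannot be set against them. The sign of each member called in the quantile-normalized values was the same under these scalings, but the smaller rises lost their call and small falls gained one.

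Among the alpha subunits, 1 of 6 was called in each of 3 comparisons with P2, each time lower. That share, 16.7%, was near those of all tested genes called lower there: 20% and 18.6% at P30 and P100 in aMSCs, and 16.4% at P30 in yMSCs. Psma2, an outer-ring subunit, had log2 signals of 11.98, 12.00 and 12.20 at P2, 11.68, 11.81 and 11.56 at P30 and 11.49, 10.88 and 11.75 at P100 in aMSCs. In yMSCs it had 12.09, 12.22 and 12.07, then 11.40, 11.78 and 11.51, then 11.50, 11.67 and 11.76 at those passages. All 12 later arrays lay below the 6 arrays of P2. The fall was called at P100 in aMSCs (-0.69, SE 0.18, adjusted p = 0.00479), and was -0.44 (adjusted p = 0.0128), no longer called, without both low arrays. The other 3 differences from P2 were -0.38 at P30 in aMSCs (adjusted p = 0.092), and -0.56 and -0.49 at P30 and P100 in yMSCs (adjusted p = 0.0179 and 0.0329), under the fold needed.

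Psma6 was called lower at P30 in aMSCs, where its values were 10.84, 10.91 and 11.10, against 11.58, 11.51 and 11.59 at P2 (-0.61, SE 0.14, adjusted p = 0.00159). The groups did not overlap. At P100 its aMSCs arrays read 11.48, 11.32 and 11.68, overlapping those of P2. Leaving out the first aMSCs array of P30 gave -0.56, under the fold needed. Psma1 was called lower at P30 in yMSCs, with 5.86, 6.48 and 6.23 against 6.74, 6.79 and 7.06 at P2 (-0.67, SE 0.20, adjusted p = 0.0125). Its lowest value lies on the first yMSCs array of P30, and without it the difference was -0.51 (adjusted p = 0.0621). Leaving out the third yMSCs array of P2 gave -0.57 (adjusted p = 0.0537).

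Psma3, the probe nearest the background, was below the detection limit on all 3 aMSCs arrays of P30, with 4.82, 5.00 and 4.57. It read 5.50, 5.60 and 5.15 in aMSCs at P100 and 5.43, 5.29 and 5.51 in yMSCs at P30. Both differences were called (aMSCs at P100 against P30, adjusted p = 0.00287; aMSCs against yMSCs at P30, adjusted p = 0.00515), with aMSCs at P30 the lower group. Without both low arrays the second stayed called (adjusted p = 0.00785) and the first did not (adjusted p = 0.0108, under the fold needed), and 8 of 16 alternatives ended the first call and 6 of 16 the second. Since the higher groups themselves lay at the level of the weakest detected probes, no fold is given.

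Of the 7 beta subunits, 1 was called in 1 of the 4 comparisons with P2 (14.3%, against 19.3% of all tested genes called higher there). That was Psmb5, the subunit with the chymotrypsin-like cutting site, which was higher at P30 in aMSCs. It had 11.55, 11.34 and 11.39 at P2, 12.28, 12.23 and 11.80 at P30 and 11.58, 10.75 and 11.90 at P100 in aMSCs, so the arrays of P30 lay above those of P2 while P100 overlapped both. The rise was 0.67 (SE 0.24, adjusted p = 0.0257), a 1.59-fold change. With 1 array fewer the rise was of similar size but not called: it was 0.63 (adjusted p = 0.075) without the second and 0.66 (adjusted p = 0.0618) without the third aMSCs array of P2, and 0.59 (adjusted p = 0.0893) without the first and 0.61 (adjusted p = 0.0829) without the second of P30. In yMSCs Psmb5 stayed between 11.21 and 11.89 at all passages. The authors' values gave 0.38 for the rise in aMSCs (adjusted p = 0.295) and the values without normalization 0.47 (adjusted p = 0.18).

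Psmb4 had the smallest span of group means of the 31 members, and its values were chosen for display after they were seen. The other 6 beta subunits spanned 0.38 (Psmb2) to 0.72 (Psmb3). Psmb4 read 12.43, 12.45 and 12.35 at P2, 12.22, 12.34 and 12.33 at P30 and 12.67, 11.89 and 12.50 at P100 in aMSCs, where 11.89 is the second array of P100. In yMSCs it read 12.65, 12.49 and 12.43, then 11.99, 12.44 and 12.43, then 12.41, 12.43 and 12.58, where 11.99 is the first array of P30. Apart from these 2 arrays, all its values fell between 12.22 and 12.67.

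Of the members called higher than at P2, all but Psmb5 belonged to the regulatory particle. At P30 against P2, 5 of 14 regulatory members were called higher in aMSCs and 3 of 14 in yMSCs, and at P100, 2 in aMSCs and 4 in yMSCs. These shares were 35.7% and 21.4% at P30, against 19.3% and 16.4% of all tested genes, and 14.3% and 28.6% at P100, against 19.1% and 20.6%. They belong to the quantile-normalized values. In the authors' values no member was called higher at P30 in either donor age. The regulatory median at P30 was 0.06 there in aMSCs and -0.13 in yMSCs. In the quantile-normalized values no regulatory member was called lower than at P2 in these 4 comparisons. Of all tested genes, 20% and 18.6% were called lower at P30 and P100 in aMSCs, and 16.4% and 18.7% in yMSCs. By sign alone, 2 and 7 of the 14 lay below 0 at P30 and P100 in aMSCs, and 3 and 3 in yMSCs. Among the 7 were Psmd6 and Psmd13, given below, whose falls were under the fold needed. With the 2 low arrays left out, the counts over all 31 members were 7 higher and 1 lower at P30 and 2 and 1 at P100 in aMSCs, and 3 and 1 at P30 and 4 and 1 at P100 in yMSCs (no share of all tested genes is given for that fit). The member added at P30 in aMSCs was the chaperone Psmd9 (0.60, adjusted p = 0.000622, against 0.59 and adjusted p = 0.0625 with them).

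Psmc1, an ATPase of the base, had the largest single rise of the members, at P100 in aMSCs. In aMSCs it read 12.23, 12.15 and 12.12 at P2, 12.66, 12.50 and 12.56 at P30 and 13.32, 13.33 and 13.18 at P100. yMSCs read 12.08, 12.14 and 12.34 at P2, 13.18, 13.16 and 13.19 at P30 and 13.20, 13.07 and 13.17 at P100. No later array overlapped those of P2 in either donor age. yMSCs at P30 were already in the range they held at P100, while aMSCs at P30 lay between. The rise against P2 was 1.11 at P100 in aMSCs (SE 0.11, adjusted p = 4.14e-07, 2.16-fold), and in yMSCs 0.99 at P30 (adjusted p = 2.08e-06) and 0.96 at P100 (adjusted p = 1.86e-06). In aMSCs the difference at P30 was 0.40 (adjusted p = 0.0057), under the fold needed, and P100 against P30 gave 0.71 (SE 0.11, adjusted p = 0.000107). At P30 itself aMSCs lay below yMSCs by a log2 difference of -0.60 (adjusted p = 0.000878), which was -0.57, under the fold needed, without the second aMSCs array. The change between P30 and P2 thus differed between the donor ages by -0.59 (SE 0.15, adjusted p = 0.0207), and that between P100 and P30 by 0.73 (SE 0.15, adjusted p = 0.00288). The first of these differences was not called in the authors' values (-0.51, adjusted p = 0.113), without normalization (-0.50, adjusted p = 0.15), or when any of 6 single arrays was left out, and the second was not called in the authors' values (0.45, adjusted p = 0.112) or without normalization (0.60, adjusted p = 0.0544). In the authors' values the rise in yMSCs at P30 was 0.56, that in aMSCs between P30 and P100 was 0.54, and the difference between donor ages at P30 was -0.52, each under the fold needed, and the last was -0.48 without normalization.

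Psmd3, a structural subunit of the lid, rose in both donor ages at both later passages. It read 11.05, 10.81 and 10.73 at P2, 11.37, 11.43 and 11.57 at P30 and 11.64, 12.05 and 11.39 at P100 in aMSCs. In yMSCs it read 10.85, 10.80 and 11.01, then 11.75, 11.64 and 11.73, then 11.87, 11.95 and 11.79. Every later array lay above every array of P2. The second aMSCs array of P100, low in core genes, was the highest of all for Psmd3. The rises were 0.59 at P30 (adjusted p = 0.00375) and 0.83 at P100 (adjusted p = 0.000248) in aMSCs, and 0.82 (adjusted p = 0.000341) and 0.98 (adjusted p = 4.5e-05) in yMSCs, each with an SE of 0.15. In the authors' values they were 0.29, 0.37, 0.44 and 0.66, of which the last was called. The rise at P30 in aMSCs also fell under the fold when the second aMSCs array of P2 (0.57), the third of P2 (0.52) or the third of P30 (0.53) was left out.

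Psmc4, another ATPase of the base, was called higher in 3 of the 4 comparisons. In aMSCs it read 11.12, 11.10 and 11.30 at P2, 12.13, 12.06 and 11.88 at P30 and 11.82, 11.56 and 11.49 at P100. Arrays of yMSCs read 11.18, 11.26 and 11.32, then 11.76, 12.02 and 11.93, then 11.88, 12.04 and 11.89. The later arrays did not overlap those of P2. The rise was 0.85 at P30 in aMSCs (SE 0.13, adjusted p = 4.72e-05), and 0.65 (adjusted p = 0.000571) and 0.68 (adjusted p = 0.000283) at P30 and P100 in yMSCs. In the authors' values these were 0.55, 0.28 and 0.35, none of them called.

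**Figure D2:**
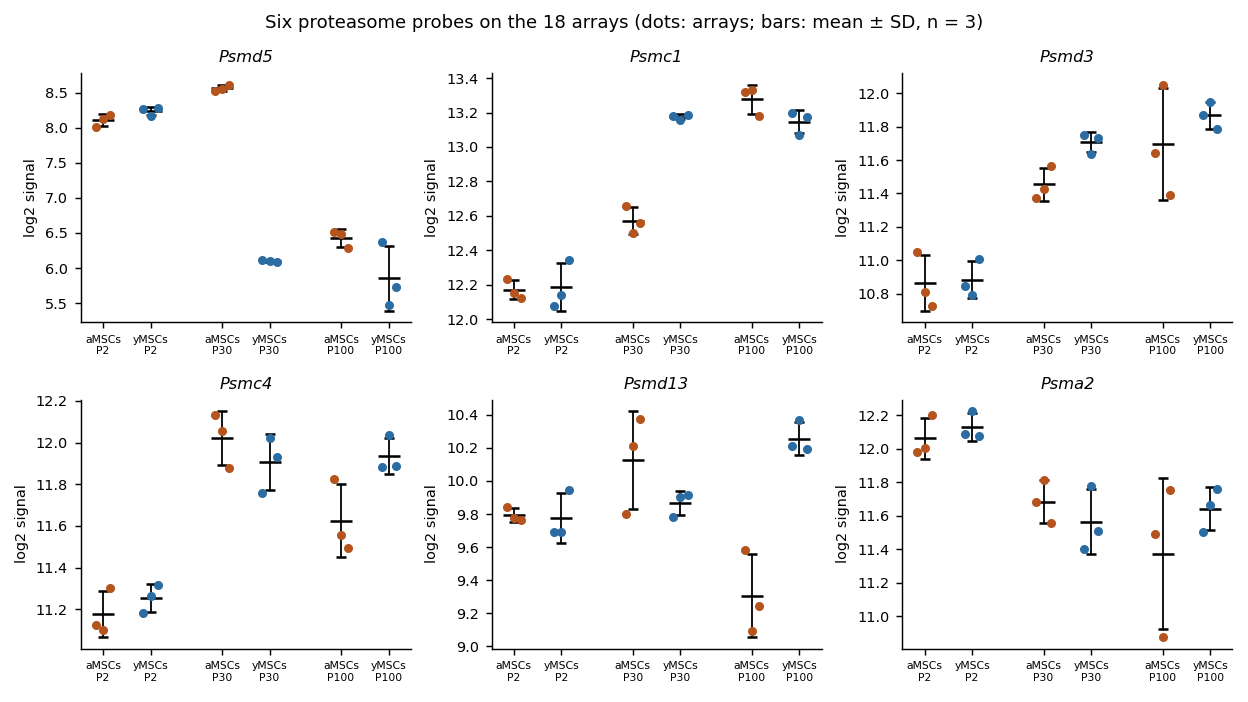
Log2 signal (vertical axes, a scale of its own for each probe) of 6 members on each of the 18 arrays, by passage, with aMSCs left of yMSCs; dots are arrays, black bars the mean ± SD of 3. Psmd5 separates P30 by donor age, and in these quantile-normalized values Psmc1 and Psmd3 are above, and Psma2 below, P2 on every later array.

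The scaffold subunits and the ubiquitin receptor of the base rose at P30 in aMSCs, where all 3 of them were called. Psmd1, the larger scaffold, read 10.55, 10.53 and 10.12 in aMSCs at P30, against 9.58, 9.38 and 9.73 at P2 (0.84, SE 0.22, adjusted p = 0.00414). Psmd4, which binds ubiquitin chains, read 10.91, 11.03 and 10.66, against 10.30, 10.22 and 10.21 (0.62, SE 0.18, adjusted p = 0.00831). Psmd2, the other scaffold, read 10.17, 10.52 and 9.83, against 9.57, 9.46 and 9.48 (0.67, SE 0.26, adjusted p = 0.038). None of the 3 overlapped between the passages. The call for Psmd2 was lost when any of 5 of the 6 arrays was left out, down to 0.50 (adjusted p = 0.165) without the second array of P30, and that for Psmd4 fell under the fold without the same array (0.54). On both low arrays Psmd2, like Psmd3, had the highest value of its group: Psmd2 read 10.68 on the first yMSCs array of P30, above 9.62 and 9.82 on the others, and 10.55 on the second aMSCs array of P100, above 10.08 and 9.54. In the authors' values the 3 rises were 0.56, 0.29 and 0.41, none called.

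In the lid, Psmd11 was called higher at P100 in yMSCs, with 12.09, 12.26 and 12.02 against 11.50, 11.47 and 11.56 at P2 (0.62, SE 0.15, adjusted p = 0.00323). It was 0.55, under the fold needed, without the second yMSCs array of P100, and 0.27 in both the authors' values and the values without normalization, not called. Psmd6, another lid subunit, was not called in any comparison. It read 11.61, 11.51 and 11.73 at P2, 11.51, 11.38 and 11.17 at P30 and 11.40, 10.95 and 11.30 at P100 in aMSCs, and 11.73, 11.71 and 11.52, 11.20, 11.33 and 11.33, and 11.15, 11.12 and 11.25 in yMSCs. Its differences from P2 were -0.26 and -0.40 at P30 and P100 in aMSCs and -0.37 and -0.48 in yMSCs (adjusted p = 0.116, 0.0218, 0.036 and 0.00723), and the groups overlapped in the first of these alone. The ATPase Psmc3 had no call, with 8.01, 8.02 and 7.70 at P2, 7.58, 7.64 and 7.61 at P30 and 7.76, 7.14 and 7.75 at P100 in aMSCs, and between 7.52 and 8.13 on the yMSCs arrays. Psmc2, Psmd7 and Psmd12 had none either, with ranges of their group means of 0.25 to 0.45.

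Psmd13, a lid subunit, separated the donor ages at P100. In aMSCs it read 9.84, 9.78 and 9.76 at P2, 9.80, 10.21 and 10.37 at P30 and 9.58, 9.09 and 9.25 at P100. In yMSCs it read 9.69, 9.69 and 9.95, then 9.78, 9.91 and 9.92, then 10.21, 10.37 and 10.19. At P100 all aMSCs arrays lay below, and all yMSCs arrays above, those of P2. Against P2 the differences at P100 were -0.49 in aMSCs (adjusted p = 0.0154) and 0.48 in yMSCs (adjusted p = 0.016), each under the fold needed, and the difference between them was -0.97 (SE 0.22, adjusted p = 0.00562). aMSCs were lower than yMSCs at P100 by a log2 difference of -0.95 (SE 0.15, adjusted p = 0.000224), and -0.85 (adjusted p = 0.0012) without both low arrays.

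The chaperone Psmd5, which binds ATPases of the base during assembly, had the largest differences of the 31 members. It read 8.01, 8.13 and 8.18 at P2, 8.53, 8.55 and 8.62 at P30 and 6.51, 6.49 and 6.29 at P100 in aMSCs. In yMSCs it read 8.27, 8.17 and 8.28 at P2, 6.12, 6.11 and 6.09 at P30 and 6.37, 5.47 and 5.72 at P100. It was low in yMSCs at both later passages and in aMSCs at P100 alone, with no overlap with P2. The differences from P2 were -2.14 (SE 0.17, adjusted p = 4.7e-08) and -2.39 (SE 0.17, adjusted p = 5.72e-09) at P30 and P100 in yMSCs, and -1.68 (SE 0.17, adjusted p = 5.51e-07) at P100 in aMSCs. At P30 in aMSCs the difference was 0.46 (adjusted p = 0.0316), under the fold needed, so that aMSCs were 5.51-fold higher than yMSCs at P30 (2.46, SE 0.17, adjusted p = 1.9e-08). The change between P30 and P2 differed between the donor ages by 2.60 (SE 0.24, adjusted p = 1.84e-06), and that between P100 and P30 by -1.89 (adjusted p = 2.8e-05). These calls held under every alternative run, but no alternative separates donor age from culture line at P30 and P100.

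The other chaperones had smaller differences. Psmd9, the second ATPase chaperone, read 9.75, 9.63 and 9.66 at P2, 10.27, 10.31 and 10.24 at P30 and 9.19, 8.54 and 9.54 at P100 in aMSCs. The difference of P100 from P30 was -1.18 (SE 0.26, adjusted p = 0.00201), and -0.91 (adjusted p = 0.000112) without both low arrays, where the lowest value falls away. In yMSCs all its values lay between 9.53 and 10.06 apart from 8.94 on the first array of P30. Psmg1 and Psmg2, which help to build the alpha ring, had no call in any of the 9 comparisons, with group means spanning 0.48 and 0.56. Psmg1 read 10.72, 10.72 and 10.38 at P2, 10.83, 10.95 and 11.01 at P30 and 10.76, 10.08 and 10.80 at P100 in aMSCs, and between 10.34 and 11.05 in yMSCs. Psmg2 read 7.65, 7.50 and 7.46, then 7.53, 7.38 and 7.69, then 7.26, 6.73 and 7.57 in aMSCs, and between 6.91 and 8.01 in yMSCs. For both, the lowest values of aMSCs and of yMSCs lie on the 2 low arrays.

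The start regions of the members with the largest differences from P2 are shown here, as the 250 bases before the annotated start in RefSeq's rat assembly GRCr8, together with a pair of core genes that hold a motif. Capitals mark the motifs searched on both strands: TGACNNNGC, the core of the antioxidant response element bound by Nrf factors with small Maf proteins, and CCAAT, the box bound by NF-Y. They do not overlap each other in the sequences shown. Psmd5 and Psmd3 held neither motif, Psmc1 and Psma2 a CCAAT box, and Psmb5 a TGACNNNGC match.
Psmd5 (chr3:38548491-38548740, minus strand): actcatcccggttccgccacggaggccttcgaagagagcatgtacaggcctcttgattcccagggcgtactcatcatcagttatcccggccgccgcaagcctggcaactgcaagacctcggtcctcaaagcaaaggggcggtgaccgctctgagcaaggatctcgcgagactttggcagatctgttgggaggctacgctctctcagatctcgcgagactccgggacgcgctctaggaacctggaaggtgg
Psmc1 (chr6:125122247-125122496, plus strand): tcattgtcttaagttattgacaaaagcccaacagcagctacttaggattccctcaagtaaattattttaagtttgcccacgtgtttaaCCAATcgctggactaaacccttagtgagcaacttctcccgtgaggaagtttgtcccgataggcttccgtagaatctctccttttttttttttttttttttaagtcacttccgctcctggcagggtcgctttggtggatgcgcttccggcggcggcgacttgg
Psmd3 (chr10:84139688-84139937, plus strand): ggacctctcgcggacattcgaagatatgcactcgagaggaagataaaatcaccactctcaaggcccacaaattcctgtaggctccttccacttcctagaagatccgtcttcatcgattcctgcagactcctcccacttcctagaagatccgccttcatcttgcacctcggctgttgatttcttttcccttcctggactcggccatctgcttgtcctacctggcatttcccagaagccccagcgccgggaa
Psma2 (chr17:55260442-55260691, minus strand): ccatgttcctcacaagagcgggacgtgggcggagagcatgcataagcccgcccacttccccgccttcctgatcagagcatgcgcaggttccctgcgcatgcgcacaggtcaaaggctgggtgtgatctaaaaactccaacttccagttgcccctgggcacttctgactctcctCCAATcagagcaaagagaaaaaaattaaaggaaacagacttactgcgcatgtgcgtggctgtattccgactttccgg
Psmb5 (chr15:32047380-32047629, minus strand): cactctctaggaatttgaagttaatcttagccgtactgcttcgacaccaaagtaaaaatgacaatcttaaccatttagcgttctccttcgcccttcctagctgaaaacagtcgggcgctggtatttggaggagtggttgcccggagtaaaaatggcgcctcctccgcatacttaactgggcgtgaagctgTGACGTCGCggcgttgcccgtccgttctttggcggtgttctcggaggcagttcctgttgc

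Start regions were found for 32 of the 36 genes, 29 of them tested. TGACNNNGC was present in 6 of the 29 (20.7%) and CCAAT in 15 (51.7%), against 10.1% and 34% of all 33469 start regions of the same length. CCAAT stood in 9 of 13 core and 5 of 12 regulatory genes, and TGACNNNGC in 4 and 1 of them. The regulatory gene with TGACNNNGC was Psmd1, and the chaperone Psmd9 held 2 matches of it and a CCAAT box. A match is a run of letters and no evidence of binding.

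The comparison of core with regulatory members drew on all 27 of them. The median difference from P2 over core members was 0.21 at P30 and -0.12 at P100 in aMSCs, and -0.01 and 0.06 in yMSCs. Over regulatory members it was 0.35 and 0.00 in aMSCs, and 0.11 and 0.39 in yMSCs, while the median of all tested genes was between 0.03 and 0.06. Core minus regulatory was therefore negative in all 4, at -0.15 and -0.12 in aMSCs and -0.12 and -0.33 in yMSCs. It was below 0 under each of the 12 settings run for each of these comparisons, with the value nearest 0 at -0.04 for aMSCs at P100. The parts of each particle were not uniform. In the order alpha ring, beta ring, ATPases, other base subunits and lid, the medians in aMSCs were -0.18, 0.33, 0.37, 0.67 and 0.18 at P30. At P100 they were -0.16, -0.11, -0.03, 0.30 and -0.21, with the lid below the core. In yMSCs they were -0.32, 0.02, 0.10, 0.24 and 0.08 at P30, and -0.13, 0.14, 0.37, 0.41 and 0.36 at P100. Some of these medians rest on the low arrays. With both, all 7 beta subunits lay below 0 at P100 in aMSCs. Without both, they lay between 0.10 (Psmb1) and 0.32 (Psmb5), while Psma1 and Psma2 stayed below 0 (-0.16 and -0.44). At P30 in yMSCs Psmb4 was at -0.09 without both, and the other beta subunits lay between 0.19 (Psmb2) and 0.41 (Psmb6). Some medians also turned sign with the scaling. Without normalization the core median turned negative for aMSCs at P30 (-0.02) and for yMSCs at P100 (-0.29), and the regulatory median for aMSCs at P100 (-0.18) and for yMSCs at P30 (-0.06). In the authors' values the same 4 medians were negative, at -0.04, -0.29, -0.33 and -0.13.

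Per array, the average over core members minus that over regulatory members was 0.15, 0.14 and 0.13 at P2, -0.02, -0.10 and -0.16 at P30 and -0.07, -0.37 and 0.17 at P100 in aMSCs. In yMSCs it was 0.22, 0.29 and 0.22, then -0.32, -0.02 and -0.02, then -0.11, -0.12 and 0.00. Thus 11 of 12 later arrays lay below every P2 array of the same donor age, the exception being the third aMSCs array of P100. The count was 11 of 12 under each of 4 scalings. Both low arrays have the lowest values, and the other later arrays apart from the exception lay between -0.16 and 0.00. Since members are not replicates and share each array, no p is attached to these averages.

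**Figure D3:**
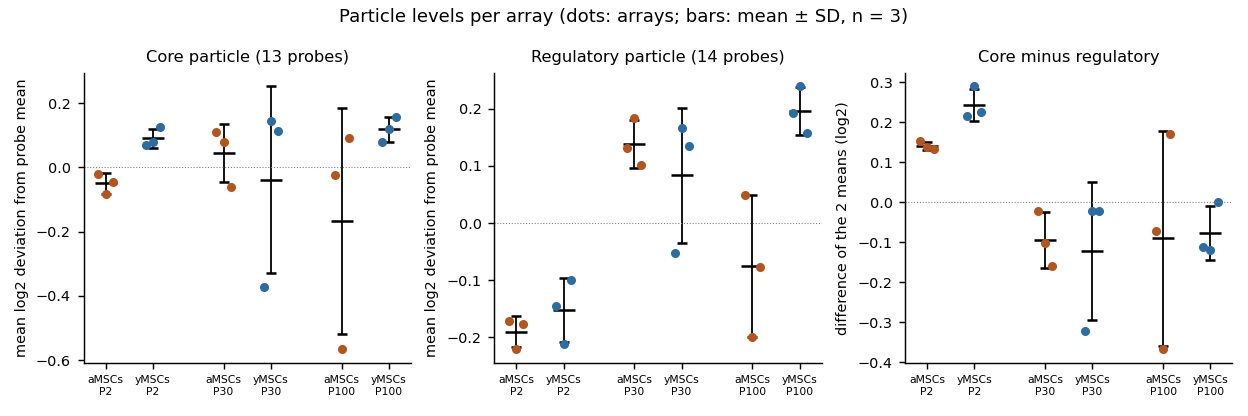
Average log2 deviation from the probe's mean over all arrays for 13 core members (left) and 14 regulatory members (middle), and their difference (right), on each array, with aMSCs left of yMSCs at each passage; dots are arrays, black bars the mean ± SD of 3. The second aMSCs array of P100 (-0.57) and the first yMSCs array of P30 (-0.37) stand apart in the core panel, and 11 of 12 later arrays lie below P2 in the right panel.

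Between the later passages, the members called were those of aMSCs. In yMSCs, limma called no member between P100 and P30 (3.39% of all tested genes were called higher and 4.50% lower), and 3 had an unadjusted p under 0.05. In aMSCs, 2 members were called higher at P100 and 7 lower, against 14.2% and 12.2% of all tested genes, so that the share called lower, 22.6%, was above that of all genes. Without both low arrays it was 5 of 31, with no share of all tested genes given for that fit. Besides Psmd5, Psmd9 and Psmd13, the members lower at P100 were the base subunits Psmc5 and Psmd1 and the beta subunits Psmb5 and Psmb7. Psmc5, an ATPase, read 9.76, 9.24 and 9.55 at P100, against 10.28, 10.38 and 10.13 at P30 (-0.75, SE 0.17, adjusted p = 0.00341). Psmd1 read 9.56, 9.27 and 9.95, against 10.55, 10.53 and 10.12 (-0.81, SE 0.22, adjusted p = 0.00851). Both kept their call without the low arrays, at -0.62 and -0.65. Psmd13 differed by -0.82 (SE 0.15, adjusted p = 0.000642).

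Psmb7, which carries the trypsin-like site, read 11.22, 10.56 and 11.45 at P100, against 11.82, 11.73 and 11.49 at P30 (-0.60, SE 0.20, adjusted p = 0.0274), and Psmb5 differed by -0.69 (adjusted p = 0.0325) with overlapping arrays. Without the second aMSCs array of P100 these were -0.35 (adjusted p = 0.151) and -0.36 (adjusted p = 0.183). Leaving out the first or second array of P30 also ended both calls. The change between P100 and P30 differed between the donor ages for 5 members (21.9% of all tested genes were called in this test; 8 members without the third aMSCs array of P30 and 11 without the third of P100): Psmd5 and Psmc1, given above, Psmd13 (-1.21), Psmc5 (-0.95) and Psmd9 (-1.18). For P30 against P2, 2 members were called in that test (11.8% of all genes), and for P100 against P2, 1 (13.7%).

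Donor age was also compared at each passage. At P2 limma called none (1.76% of all tested genes were called higher in aMSCs and 2.29% lower), none had an unadjusted p under 0.05, and the differences lay between -0.26 and 0.25. By sign, all 13 core differences were below 0, between -0.26 and -0.03, as were 11 of 14 regulatory differences and 4593 of all 9531. Members share the same arrays, so their signs are not separate observations. At P30 Psmd5 was called higher in aMSCs and Psmc1 and Psma3 lower (8.12% and 9.53% of all genes). At P100 none was called higher and Psmd13 and Psmb3 lower (10.0% and 9.03%), 2 members in all, against 6 without the third aMSCs array of P100. Psmb3, a structural beta subunit, read 11.61, 10.86 and 11.99 in aMSCs, against 12.14, 12.21 and 12.27 in yMSCs (-0.72, SE 0.24, adjusted p = 0.0416). Without the second aMSCs array it was -0.41 (adjusted p = 0.222), and leaving out any 1 of 5 of the 6 arrays ended the call.

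Other genes of the pathway give the setting. The immunoproteasome subunits replace Psmb5, Psmb6 and Psmb7 in immune cells and after interferon. Psmb8 read 6.55, 7.56 and 8.29 at P2, 7.34, 7.23 and 7.06 at P30 and 6.48, 5.87 and 6.39 at P100 in aMSCs. In yMSCs it read 7.86, 8.63 and 9.01, then 5.15, 5.90 and 5.74, then 4.95, 4.54 and 4.53, the last below the detection limit on all 3 arrays. It was lower at P30 in yMSCs (-2.91, SE 0.35, adjusted p = 6.38e-06), a size that is not exact, since it was detected there on 2 of 3 arrays. At P100 in yMSCs it was at least 8.5-fold lower than at P2 (adjusted p = 1.63e-07), taking the weakest detected probe of each array as its limit. In aMSCs it differed from P2 by -0.26 at P30 (adjusted p = 0.564) and by -1.22 at P100 (adjusted p = 0.00935). The last was -0.81 (adjusted p = 0.0631) without the third aMSCs array of P2. The summed signal of the macrophage markers was 753 to 1532 at P2, 316 to 395 at P30 and 562 to 649 at P100 in aMSCs, and 1281 to 2781, 346 to 415 and 689 to 728 in yMSCs. It was lower at P30 than at P2 in both donor ages, while Psmb8 was called lower there in yMSCs and not in aMSCs. At P100 the sum lay above P30 in both, but Cd14 was the only macrophage marker detected in the later groups. The mean of Cd14 was 7.35 at P30 and 8.71 at P100 in aMSCs, and 7.64 and 9.06 in yMSCs. The mean level of Psmb8 was lower at P100 than at P30 in both. The part of macrophages in the level of Psmb8 was not tested. Psmb10, read by the brighter of its 2 probes, was higher in aMSCs than in yMSCs at P30 by 1.30 on the log2 scale (SE 0.31, adjusted p = 0.00733), with 10.63, 10.55 and 10.23 against 8.31, 9.66 and 9.55. The value 8.31 lies on the first yMSCs array of P30, low in core genes. The call was lost under 1 of 17 alternatives, and the smallest difference over them was 0.87. Psmb9 was below the detection limit in every group.

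Psme1, a subunit of the PA28 activator that opens the core without ATP, was highest at P100. It read 9.84, 9.97 and 10.04 at P2, 10.49, 10.27 and 10.72 at P30 and 12.14, 11.31 and 12.10 at P100 in aMSCs, and 9.87, 10.20 and 10.41, 10.14, 11.02 and 11.17, and 11.56, 11.68 and 11.62 in yMSCs. At P100 it was above P2 by 1.90 in aMSCs (SE 0.25, adjusted p = 1.12e-05) and by 1.46 in yMSCs (adjusted p = 0.000145), while its partner Psme2 was not called in any of the 9 comparisons. Of the parts of the 26S particle with names of their own, 4 were tested. The redox protein Txnl1, which binds the regulatory particle, was lower at both later passages in both donor ages, by -0.82 and -0.91 in aMSCs and -0.87 and -0.88 in yMSCs (adjusted p from 0.000302 to 0.000718). Adrm1, a ubiquitin receptor of the base, was higher at P30 in aMSCs, with 8.29, 8.23 and 7.10 against 6.37, 6.21 and 6.50 at P2 (1.51, SE 0.24, adjusted p = 8.33e-05), while its difference in yMSCs was -0.04 (adjusted p = 0.918). Pomp, the chaperone of beta-ring assembly, was lower at P100 in aMSCs, with 7.68, 6.86 and 8.11 against 8.93, 8.83 and 8.72 at P2 (-1.28, SE 0.29, adjusted p = 0.00178). The value 6.86 lies on the second array of P100, low in core genes. The difference stayed called under all 17 alternatives, the smallest being -0.94.

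**Figure D4:**
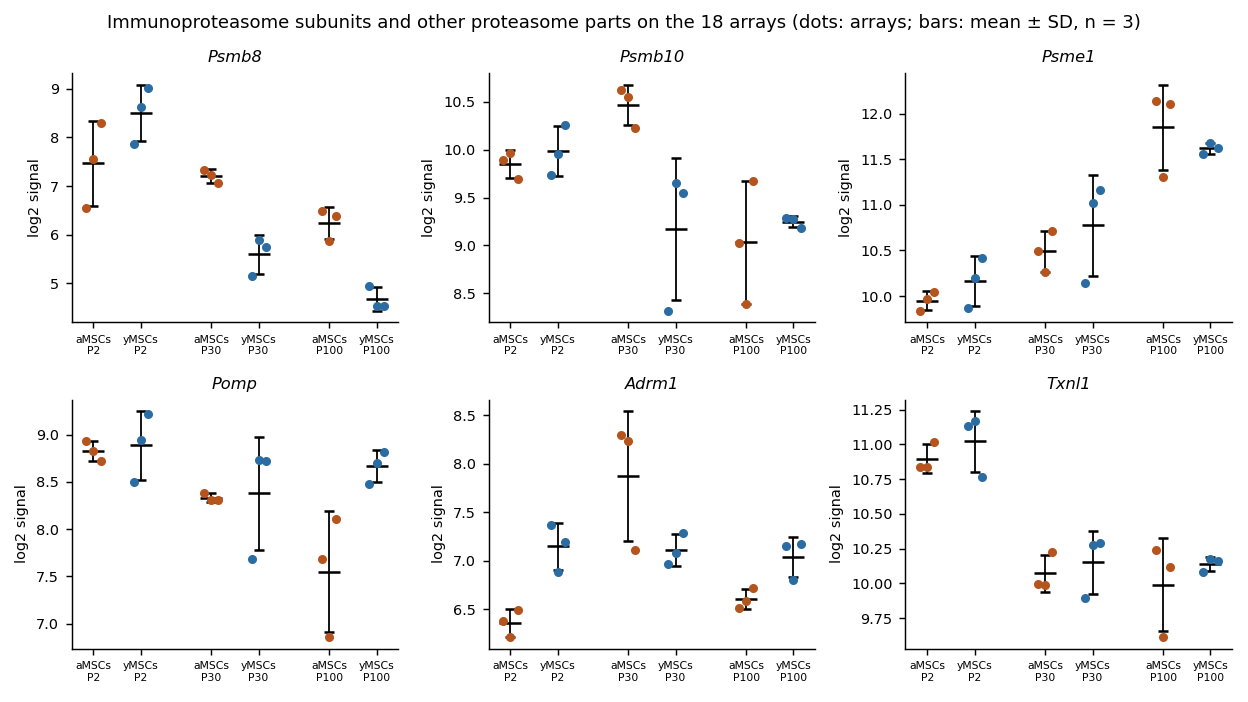
Log2 signal (vertical axes, a scale of its own for each probe) of 2 immunoproteasome subunits and 4 other proteasome parts on each of the 18 arrays, by passage, with aMSCs left of yMSCs; dots are arrays, black bars the mean ± SD of 3. Psmb8 is lowest in yMSCs at P100, Psme1 is highest at P100, and Txnl1 is below P2 on every later array.

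Genes further out in the pathway were counted by the same rule, and their counts against P2 are to be read beside the shares of all tested genes called higher and lower: 19.3% and 20% at P30 and 19.1% and 18.6% at P100 in aMSCs, and 16.4% and 16.4%, and 20.6% and 18.7% in yMSCs. Of 11 tested shuttle factors and p97 partners, 1 was called higher and 1 lower at P30 in both aMSCs and yMSCs, 0 and 2 at P100 in aMSCs, and 1 and 1 at P100 in yMSCs. The gene lower in all 4 was Ufd1, which brings ubiquitinated proteins to p97, at -0.59 and -1.02 in aMSCs and -0.76 and -0.92 in yMSCs. The gene higher at P30 in aMSCs was Sqstm1, the autophagy receptor, at 1.38 (adjusted p = 0.000484), but its 2 probes disagree: the brighter, tested one read 10.57, 10.57 and 10.50 at P30 against 9.16, 9.08 and 9.26 at P2, and the other 7.46, 7.72 and 8.95 against 9.07, 8.98 and 8.94. Those higher in yMSCs were Ubqln1 at P30 (0.59, adjusted p = 0.00692) and Ubqln4 at P100 (0.63, adjusted p = 0.00926), which carry ubiquitinated proteins to the proteasome, and the other gene lower at P100 in aMSCs was Nploc4 (-0.71, adjusted p = 0.003), the partner of Ufd1.

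Of the 7 tested genes tied to transcription of the subunits, 2 were called lower at P30 in aMSCs and 1 in yMSCs, and at P100, 1 was called higher and 1 lower in aMSCs and 0 and 1 in yMSCs. Ngly1, which strips sugars from Nrf1 as that factor is activated, was lower at P30 in aMSCs (-0.80, adjusted p = 0.000167) and at P30 and P100 in yMSCs (-0.77 and -1.03, adjusted p = 0.000283 and 1.13e-05). At P100 in aMSCs it differed from P2 by -0.14 (adjusted p = 0.437). Mafk, a small Maf partner of the Nrf factors, was lower in aMSCs at P30 (-0.69, adjusted p = 0.00285) and P100 (-0.91, adjusted p = 0.000314). Keap1, which holds Nrf2 back, was higher at P100 in aMSCs (0.90, adjusted p = 0.0015).

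Among 13 tested cytosolic chaperones, 4 were called higher at P30 and 4 at P100 in aMSCs, where 1 was lower, and 3 and 4 higher in yMSCs. Cct3, Cct4 and Cct7, subunits of the chaperonin that folds actin and tubulin, were called in all 4 comparisons. Cct3 was higher by 0.96 and 0.85 in aMSCs and 0.97 and 1.02 in yMSCs, Cct7 by 1.09 and 0.69, and 0.83 and 0.95, and Cct4 by 0.67 and 0.81, and 0.62 and 0.60. These rises depend on the scaling: in the authors' values Cct4 lay between 0.20 and 0.34 in the 4 comparisons, with no call, and Cct3 and Cct7 were at 0.35 and 0.21 at P100 in aMSCs and at 0.58 and 0.43 at P30 in yMSCs, with no call in either. Cct8, of the same ring, was the chaperone lower at P100 in aMSCs, with 7.77, 7.93 and 8.26 against 8.85, 8.78 and 8.82 at P2 (-0.83, adjusted p = 6.5e-05).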

How the data were processed

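Total RNA of 18 samples (6 groups of 3 arrays) was hybridised to RatRef-12 BeadChips. The authors deposited raw scanner intensities (mean bead signal per probe, neither background-subtracted nor normalized) with a detection p-value per probe, and, per the labels, intensities that were background-subtracted and rank-invariant normalized in BeadStudio 3. Here the raw intensities were corrected with neqc (normexp fitted through the detection p-values, offset 16, quantile normalization, log2) in limma 3.58.1 under R 4.3.3. Probes with a mean detection p-value of at most 0.01 in at least 1 group were kept, 1 probe a gene by highest mean, which left 9531 genes (6837 named) of 22226 probes. Of the probes, 70 whose raw and normalized entries did not pair were kept without a gene name.

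One model over 6 groups (12 residual degrees of freedom) gave 9 comparisons and 3 differences of changes between donor ages. A call needed a Benjamini-Hochberg adjusted p under 0.05 and a fold of at least 1.5. The study's methods give the same fold and a p threshold of 0.05 for BeadStudio's own test, and name no adjustment. Every comparison used limma's moderated test, tried first on simulated data, and 3 arrays a group limit its precision. The members and gene lists were chosen with earlier results of these data known. Values on every array were given for the largest rise and fall of each class in each comparison and for members called in both donor ages (and for others chosen after their values were seen, such as Psmb4), and of other lists up to 4 called genes by smallest adjusted p, with genes behind counts of 5 or fewer. The alternatives were the authors' values, no normalization, an offset of 50, other detection and fold filters, array weights, the replicate block, only the arrays compared, and leaving out arrays. Start regions came from RefSeq.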

Additional observations from a re-analysis of the deposited data

Results flagged for a closer look

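For the genes below, the change between passages differed between aMSCs and yMSCs by limma's test of that difference (change in aMSCs minus change in yMSCs, log2, adjusted p under 0.05 and at least 1.5-fold). Groups of 3 arrays are too small for a test of single outlying arrays. Whether these differences belong to donor age or to the culture lines was not tested.

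For P30 against P2 the difference was 2.596 for Psmd5 and -0.586 for Psmc1 among the members. Among other genes of the pathway it was 2.647 for Psmb8, 1.427 for Psmb10, 1.552 for Adrm1, 1.269 for Sqstm1 and -1.081 for Mafk. The value for Psmb8 is not exact, since the probe was detected on 2 of 3 yMSCs arrays of P30. The difference for Psmb10 was not called under 14 of 22 alternatives and that for Sqstm1 under 13 of 22, including the authors' values (adjusted p = 0.0646 and 0.0559) and no normalization (adjusted p = 0.0552 and 0.0527), and the 2 probes of Sqstm1 disagree. That for Psmc1 was not called under 11 of 22.

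For P100 against P2 it was -0.9702 for Psmd13, the only member called, and 2.607 for Psmb8, 0.8945 for Ngly1, -0.6752 for Cct8 and -0.9017 for Mafk. The value for Psmb8 has no exact size, since yMSCs at P100 were below the detection limit on all 3 arrays. That for Cct8 was not called under 7 of 22 alternatives. At P100 all 3 aMSCs arrays of Psmd13 lay below, and all 3 yMSCs arrays above, those of P2 of the same donor age.

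For P100 against P30 it was 0.7335 for Psmc1, -0.9484 for Psmc5, -1.213 for Psmd13, -1.887 for Psmd5 and -1.176 for Psmd9. It was -1.514 for Psmb10, -1.202 for Adrm1, 0.9284 for Ngly1 and -1.282 for Sqstm1. Without the second aMSCs array of P100, those of Psmd9 (-0.90), Psmb10 (-1.20) and Sqstm1 (-0.97) were not called.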

How the results depend on the processing

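Of 108 calls of named genes and comparisons, none changed sign under any alternative. The settings for folds, detection, the replicate block and only the arrays compared keep the same log2 differences, so no sign could change there. With no fold threshold no call could be lost. Calls were lost for 31 with the authors' normalized values, 33 with no normalization between arrays, 8 with an offset of 50, 17 with no detection filter, 3 of 98 with detection in all 6 groups, 68 with a fold of at least 2, 0 with no fold threshold, 17 with array weights, 13 of 87 with only the arrays compared, 20 without both arrays low in core members (chosen after seeing the data), and 116 of 774 when 1 array was left out. The causes were not tested.

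The members' median log2 change minus that of all tested genes was -0.01 at P30 and 0.07 at P100 against P2 in yMSCs, and 0.28 and -0.14 in aMSCs. With the authors' values these were -0.22, -0.11, 0.0619 and -0.40, and with no normalization the last was -0.31. Without both low arrays it was 0.17 at P30 in yMSCs, 0.0772 at P100 in aMSCs, and, for P100 against P30, -0.0377 in yMSCs (0.15 with them) and -0.11 in aMSCs (-0.31 with them). Leaving out 1 array gave -0.12 to 0.17 at P30 in yMSCs, -0.29 to 0.0758 at P100 in aMSCs, and, for P100 against P30, -0.0377 to 0.21 in yMSCs and -0.39 to -0.12 in aMSCs. Core minus regulatory at P30 in yMSCs was -0.28 with the authors' values and -0.26 with no normalization (-0.12 as reported). For aMSCs against yMSCs at P100 it was 0.05, with 0.235 without both low arrays and -0.075 to 0.23 when 1 array was left out.

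Members called at P30 and P100 against P2 in aMSCs numbered 2 and 9 with the authors' values, and 4 and 7 with no normalization (7 and 4 as reported). The counts in this paragraph stand without the share of all tested genes called under each setting. A fold of at least 2 left 1 and 1 at P30 and P100 in yMSCs, 0 and 2 in aMSCs, 2 for P100 against P30 in aMSCs, 1 and 0 for donor age at P30 and P100, and 1, 0 and 3 for the differences of changes. With no fold threshold there were 9 at P100 in yMSCs, 10 at P100 in aMSCs and 5 for donor age at P100. That last comparison had 1 member called with no detection filter, array weights, only the arrays compared, or without both low arrays (2 as reported). Members whose change between P30 and P2 differed between donor ages (2 as reported) numbered 1 with the authors' values, no normalization, an offset of 50 or without both low arrays, and 6 with array weights. For P100 against P2 (1 as reported) they numbered 2 with no normalization, an offset of 50 or array weights. Leaving out 1 array gave 4 to 7 members at P30 and 3 to 7 at P100 in aMSCs, 0 to 1 for P100 against P30 in yMSCs, 2 to 5 and 1 to 6 for donor age at P30 and P100, and 1 to 3, 1 to 2 and 4 to 11 for the differences of changes.

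The replicate numbers did not pair the samples: deviations from the group means correlated at -0.72 to 0.57 between samples of the same number, above 0.1 in 6 of 45 pairs. With the replicate block the counts of members called were 5 and 5 at P30 and P100 in yMSCs and 7 and 4 in aMSCs, and the calls lost were Psmb10 at P30 in yMSCs (adjusted p = 0.0518) and its difference between donor ages (adjusted p = 0.056). A slide block was not run, since the columns used name no slide, nor a mean over probes, since each tested member has 1 probe. Psma3 lies near the background and has no fold, and signal over background was lower at P30 and P100 than at P2.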
